A study of Homo sapiens with 31 samples.

Results

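The comparison described here set 10 RNA-seq libraries labelled as KHSRP knockout (the KO label) against 10 labelled NC, out of 31 samples in the whole series. PANC-1 is an established line from a human pancreatic ductal carcinoma. All 20 carry that name and were made from polyA RNA of cells given actinomycin D, an inhibitor of transcription. The KO label goes with a KHSRP knockout genotype and the NC label with a wild-type genotype, and each label has 2 libraries at 0, 2, 4, 6 and 8 h of the drug. The libraries were taken by their titles, and labelled time entered the model as a covariate. The comparison itself was set up knowing that many genes are on under one label and off under the other. KHSRP, CDKN2A and KRT19 were given with it as markers. The labels do not say how the knockout was made, whether the cells are 1 clone, what NC stands for, or whether the 2 libraries of a group came from separate cultures. P-values therefore cover only how far these libraries scatter, and that scatter may be technical. For differences over all times, the scatter behind p-values and standard errors also holds changes of the label difference with labelled time. A further 6 libraries of the series, 3 of the KHSRP knockout and 3 of NC without a labelled drug, are called steady state here and are given beside the results. The labels were taken as given, but the NC-labelled libraries differ from the steady-state libraries of both genotypes at CDKN2A and KRT19, described below. Whether the NC-labelled libraries come from the same line as the others was not tested, so every value below compares 2 labels, and a difference of genotype cannot be told apart from a difference of line. Levels of some genes also do not run in order of the labelled times, and whether those labels are right was not tested. Each set has tables of its own, made apart from the other's, so levels of the 2 sets stand side by side with no test.

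Cells keep their lineage through transcription factors that hold one set of genes on and others off. In the pancreatic duct these include SOX9, and ductal cells are marked by the keratins KRT7 and KRT19. HOX genes are switched on in patterns that depend on the position of a tissue in the embryo, and cell lines usually keep the HOX pattern of their origin through many passages. CDKN2A encodes the cell-cycle inhibitors p16INK4a and p14ARF, and PANC-1 cells are known to lack it through a deletion. KHSRP is an RNA-binding protein that promotes the decay of transcripts with AU-rich elements. Genes of these kinds were read for which of them separated the labels at every labelled time, which is the question the comparison was set up to ask.

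Each of the 20 libraries held 19177934 to 25768060 counts, and each steady-state library 33706226 to 43278149. Counts were tested with edgeR's quasi-likelihood F test, and adjusted p-values are Benjamini-Hochberg values over 17715 genes. Differences are log2 changes, KO label minus NC label, with a standard error (SE). Levels are CPM, the counts relative to each library's total after TMM scaling, given as the lowest, median and highest of the 10 libraries of a label. Over all labelled times 6697 genes (37.8% of those tested) were higher and 6594 (37.2%) lower under the KO label. At all 5 times with the same sign, 3558 genes (20.1%) were higher and 3600 (20.3%) lower, and these percentages are the background for every list below. They are shares of tested genes, so the number tested is given with each list. Together these are 40.4% of the genes tested, and 75% were called over all times. By time the share higher and lower was 35.5% and 31.6% at 0 h, 33.8% and 35.3% at 2 h, 31.9% and 38.3% at 4 h, 37.4% and 34.9% at 6 h, and 34.9% and 31.4% at 8 h. A log2 change of 1 or more was reached by 21.5% and of -1 or less by 19.4%. In 3442 genes (19.4%) every KO library stood above every NC library, and in 3318 (18.7%) every KO library stood below, 38.2% in all. The median log2 change was -0.02. With counts scaled to ribosomal protein genes it was 0.37, and on the deposited molecule signal 0.41, and the split of calls moved to 8694 higher and 4347 lower and to 8392 and 4112, so small differences depend on the scaling. In bulk RNA, fewer cells of a type and less RNA per cell cannot be told apart.

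KHSRP, the gene named in the KO label (minus strand of hg19 chromosome 19, 6413113 to 6424822), was reduced and not absent. Its levels were 134, 149 and 156 CPM under the KO label and 375, 439 and 460 CPM under the NC label. The log2 change was -1.52 (SE 0.05, adjusted p = 2.23e-16) and lay between -1.67 and -1.32 at the 5 times. The groups did not overlap, and counts of the gene ran from 2774 to 3746 in the single KO libraries. In the steady-state libraries the TMM-scaled mean was 9.998 ± 0.571 CPM (SD, n = 3) in the knockout and 65.02 ± 0.613 CPM (SD, n = 3) in NC (log2 change -2.70, SE 0.08, adjusted p = 4.49e-07), where 24.3% of 17233 genes were higher and 26.3% lower. A processed copy of the gene, the pseudogene KHSRPP1, was chosen after its values were seen: it had 6150 counts over the KO libraries and 6 over the NC libraries. Reads may be shared between KHSRP and such a copy, so both values are uncertain. FUBP3, a paralog of KHSRP in the same family of single-strand nucleic acid binding proteins, was also lower under the KO label, at 70.5, 102 and 123 CPM against 183, 244 and 278 CPM (log2 change -1.26, SE 0.08, adjusted p = 2.34e-11).

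CDKN2A and CDKN2B on 9p21 separated the labels in every library. CDKN2A (hg19 chromosome 9, 21967751 to 21995323, minus strand) had 0 counts in all 10 KO libraries and 2728 to 5476 counts in each NC library, or 125, 205 and 247 CPM. Set against a floor of 3 counts per library, its level was at least 1214-fold higher under the NC label. CDKN2B, the neighbouring gene for the inhibitor p15INK4b, had 0 counts in every KO library and 7.42, 12.6 and 36.8 CPM in the NC libraries, at least 115-fold higher. In the 6 steady-state libraries CDKN2B had no counts and CDKN2A at most 0.178 CPM. At both genes the KO label and the steady-state libraries were at or near 0 and the NC label was not. MTAP, a methionine salvage enzyme gene next to CDKN2A that is often lost with it, was present under both labels, at 15.9, 29.5 and 39.7 CPM against 42.3, 51.2 and 59.1 CPM (log2 change -0.92, SE 0.13, adjusted p = 3.95e-06). Without the libraries labelled 4 h and 6 h its log2 change was -0.55. It stood at only 2.00 to 3.01 CPM in the steady-state libraries. Of the 7 genes listed for this neighbourhood, all of which were tested, 4 were lower and 0 higher at every time. Over all times 4 were lower, 1 was higher and 2 were not called. In 1 gene every KO library stood above every NC library, and in 4 genes every KO library stood below.

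CDKN2A has 2 main start sites, and the 250 bases before each are shown because this gene was at 0 under one label and abundant under the other. The bases before the start of AGR2 and before 1 start of OCLN follow, as genes with the opposite pattern. The sequences are RefSeq's for GRCh38.p14, read 5′ to 3′ on the gene's strand, with the CG dinucleotides, the sites of DNA methylation, in capitals.
CDKN2A, distal start, chr9:21995325-21995574, minus strand: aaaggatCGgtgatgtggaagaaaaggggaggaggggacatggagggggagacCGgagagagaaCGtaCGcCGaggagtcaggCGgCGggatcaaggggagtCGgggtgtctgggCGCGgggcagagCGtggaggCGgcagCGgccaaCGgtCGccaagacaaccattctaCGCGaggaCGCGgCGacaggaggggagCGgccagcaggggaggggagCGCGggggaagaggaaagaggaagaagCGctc
CDKN2A, proximal start, chr9:21974858-21975107, minus strand: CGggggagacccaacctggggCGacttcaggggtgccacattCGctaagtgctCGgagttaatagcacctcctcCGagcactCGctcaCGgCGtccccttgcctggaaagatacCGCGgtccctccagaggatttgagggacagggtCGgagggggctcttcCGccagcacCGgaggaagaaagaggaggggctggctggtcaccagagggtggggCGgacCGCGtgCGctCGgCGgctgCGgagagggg
AGR2, chr7:16805000-16805249, minus strand: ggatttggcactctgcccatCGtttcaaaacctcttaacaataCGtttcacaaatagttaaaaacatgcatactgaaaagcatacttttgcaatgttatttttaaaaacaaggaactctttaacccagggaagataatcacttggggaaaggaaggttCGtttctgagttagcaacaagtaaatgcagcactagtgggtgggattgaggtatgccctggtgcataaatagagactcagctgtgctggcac
OCLN, chr5:69492297-69492546, plus strand: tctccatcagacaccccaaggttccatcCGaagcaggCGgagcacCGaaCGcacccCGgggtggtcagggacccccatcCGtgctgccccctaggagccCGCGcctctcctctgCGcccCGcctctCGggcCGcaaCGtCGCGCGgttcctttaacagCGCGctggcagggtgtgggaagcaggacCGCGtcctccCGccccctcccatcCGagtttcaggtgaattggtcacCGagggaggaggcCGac
The distal CDKN2A window holds 24 CG, the proximal one 20, the AGR2 window 3 and the OCLN window shown 24. A second OCLN window, chr5:69492540-69492789, holds 20 CG and is not shown. At least 1 CG was present in 93.9% of the 35116 windows of this kind. The search was for the letters CG, which read the same on both strands. Among the genes on under one label only, described further on, the median was 20 CG for those on under NC (37 of 50 matched) and 18 for those on under KO (44 of 61 matched), against 22 for all genes tested (12494 of 17715 matched). For these medians, a gene with several windows was counted by the one with the most CG. DNA methylation was not measured, and the counts of CG describe only these letters.

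Simple epithelial keratins, the intermediate filaments of single-layered epithelia, were abundant under both labels but not the same ones. KRT19 (hg19 chromosome 17, 39679869 to 39684560) stood at 372, 409 and 415 CPM under the KO label and at 0, 0.293 and 0.672 CPM under the NC label (log2 change 10.28, SE 0.22, adjusted p = 1.36e-18). KRT7, the other keratin of ductal cells, ran the opposite way, at 8.61, 11.5 and 19.1 CPM against 541, 730 and 961 CPM (log2 change -5.86, SE 0.10, adjusted p = 1.55e-20). Every library therefore carried one of these ductal keratins at a high level and the other at a low one. KRT17, a keratin of basal and stressed epithelium, was at 0.184, 0.535 and 1.49 CPM under the KO label and 285, 353 and 483 CPM under NC (log2 change -9.15, SE 0.20, adjusted p = 1.47e-18). The general pair of simple epithelia, KRT8 and KRT18, separated the labels less. KRT8 stood at 2155, 3380 and 4099 CPM against 1405, 1954 and 2277 CPM, and KRT18 at 1270, 1751 and 1927 CPM against 976, 1283 and 1336 CPM. KRT18 was called higher at 4 of the 5 times, and its log2 change at the libraries labelled 6 h was -0.05. With ribosomal protein scaling the log2 change over all times went from 0.72 to 1.11 in KRT8 and from 0.44 to 0.83 in KRT18. Per length, on the deposited RPKM scale, the order under the KO label was KRT8 (mean 641 ± 104, SD, n = 10), KRT18 (510 ± 44.2), KRT19 (133 ± 8.73) and KRT7 (3.50 ± 0.656). Under the NC label it was KRT8 (382 ± 48.8), KRT18 (370 ± 33.7), KRT7 (201 ± 31.5), KRT17 (107 ± 15.4) and KRT19 (0.103 ± 0.0749). KRT8 and KRT18 had close means there and were not compared within libraries, so their order under the NC label was not tested. The steady-state libraries held KRT19 at 293 to 366 CPM, KRT7 at 3.34 to 5.50 CPM and KRT17 at 0 to 0.226 CPM. Of the 7 simple epithelial keratins, all tested, 3 were higher and 2 lower at every time.

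**Figure D1:**
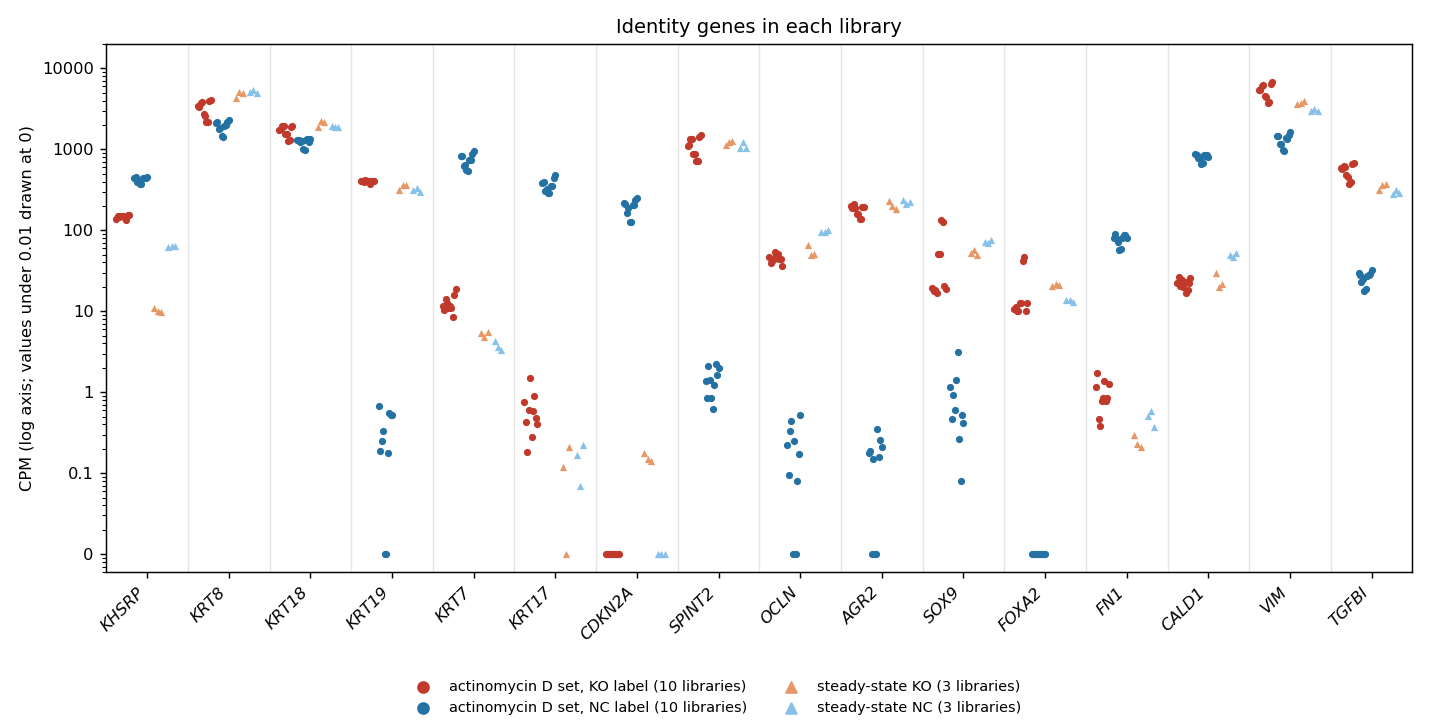
Levels of 16 identity genes in each library, as CPM on a log axis with values under 0.01 drawn at 0; circles are the 10 libraries of each label in the actinomycin D set (TMM-scaled CPM), triangles the 3 steady-state libraries of each genotype (plain CPM). KRT19, AGR2 and FOXA2 are at or near 0 in all NC-labelled libraries and CDKN2A is at 0 in all KO-labelled ones, while KRT8 and KRT18 are high throughout.

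Pancreatic ductal genes as a group did not fall on one side. Of 12 listed genes, 9 passed the count filter, 4 were higher and 4 lower at every time, and the median log2 change was -0.56. SOX9, which maintains ductal progenitors, was higher under the KO label at 16.7, 19.9 and 134 CPM against 0.0791, 0.557 and 3.18 CPM (log2 change 5.38, SE 0.46, adjusted p = 5.78e-09). ONECUT2, a factor of pancreatic and liver development, was lower, at 1.66, 2.98 and 4.80 CPM against 48.0, 68.6 and 97.1 CPM (log2 change -4.57, SE 0.12). SOX9 and ONECUT2 thus stood on opposite sides. ANXA4, an annexin of secretory epithelium, was higher under the KO label (log2 change 1.40, SE 0.09). Other ductal genes were near 0 under both labels: SLC4A4 and SPP1 were under 0.5 CPM in all 20 libraries.

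Genes of the classical subtype of pancreatic cancer and of gastric-type epithelium were higher under the KO label in 5 of 22 cases and lower in 1 at every time, with 15 tested and a median log2 change of 1.43. AGR2, a protein disulfide isomerase of mucus-secreting cells, stood at 138, 189 and 210 CPM under the KO label and 0, 0.169 and 0.354 CPM under NC (log2 change 10.17, SE 0.21, adjusted p = 2.63e-19). FOXA2, a pioneer factor of the endoderm, had 9.99, 12.0 and 47.1 CPM against 0 counts in all 10 NC libraries, at least 125-fold higher. CEACAM6, a cell adhesion glycoprotein, stood at 15.8, 26.9 and 35.6 CPM against 0, 0 and 0.167 CPM (adjusted p = 9.97e-17). None of these overlapped between the labels, which the choice of named genes required. In the steady-state libraries AGR2 was at 184 to 235 CPM, FOXA2 at 12.8 to 21.5 CPM and CEACAM6 at 4.93 to 7.80 CPM. Other genes of this list were under 0.5 CPM in all 20 libraries, among them PDX1, ONECUT1, TFF2, TFF3, CEACAM5 and ANXA10.

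Basal and squamous genes were lower under the KO label in 5 of 20 cases and higher in 1. Only 8 were tested, with a median log2 change of -4.54, or -3.26 with genes at 0 counts set at their bound. Beside KRT17, DSC3, a desmosomal cadherin, was lower under the KO label at 0, 0.167 and 0.483 CPM against 4.61, 6.97 and 9.46 CPM (log2 change -5.22, SE 0.28). KRT15, a keratin of basal cells, was higher, at 6.54, 13.004 and 17.0 CPM against 0, 0.169 and 0.704 CPM (log2 change 5.55, SE 0.32). The defining keratins of this lineage were not detected above a trace: KRT5, KRT14, KRT6A and KRT6B were under 0.5 CPM in all 20 libraries. KRT17 was thus high under the NC label without these 4 keratins.

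Epithelial junction and identity genes held both directions at high levels. Of 34 listed genes, 26 were tested, 11 were higher and 7 lower under the KO label at every time, and the median log2 change was 1.66. SPINT2 (hg19 chromosome 19, 38755213 to 38783255), an inhibitor of membrane serine proteases, stood at 709, 1112 and 1505 CPM under the KO label and 0.620, 1.40 and 2.22 CPM under NC (log2 change 9.57, SE 0.17, adjusted p = 1.59e-20). Its paralog SPINT1 went the same way, at 8.13, 10.3 and 11.8 CPM against 0, 0 and 0.248 CPM. OCLN, the tight junction protein occludin, stood at 36.4, 44.6 and 53.5 CPM against 0, 0.198 and 0.527 CPM (log2 change 7.71, SE 0.29, adjusted p = 7.71e-15). These 3 genes did not overlap between the labels, which the choice of named genes required. In the steady-state libraries SPINT2 was at 1042 to 1273 CPM and OCLN at 50.2 to 100.4 CPM. DSP, the desmosomal plaque protein desmoplakin, ran the other way and stood at 31.1, 34.3 and 38.9 CPM against 438, 558 and 587 CPM (log2 change -3.94, SE 0.07, adjusted p = 2.41e-20). ST14, the membrane protease matriptase that SPINT1 and SPINT2 inhibit, was lower, at 0.369, 0.532 and 1.07 CPM against 3.37, 5.58 and 13.5 CPM (log2 change -3.52, SE 0.24). The inhibitors and their protease thus stood on opposite sides of the comparison. CLDN1 and JUP were chosen after their values were seen, so their opposite sides add nothing to the counts of the list. CLDN1, a claudin, stood at 39.3, 46.4 and 56.3 CPM against 0.112, 0.581 and 1.03 CPM. JUP, plakoglobin, stood at 182, 227 and 243 CPM against 490, 732 and 818 CPM. E-cadherin, encoded by CDH1, was low under both, at 1.39, 2.50 and 3.83 CPM against 0.179, 0.548 and 0.847 CPM. ESRP1, GRHL2, RAB25 and EHF, which mark well-differentiated epithelium, stood under 0.5 CPM in all 20 libraries.

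Mesenchymal genes were also split. Of 30 listed, 29 were tested, 9 were higher and 7 lower under the KO label at every time, and the median log2 change of 0.28 moved to 0.67 with ribosomal protein scaling and to 0.72 on the molecule signal. Higher under the KO label were TGFBI, a matrix protein induced by TGF-beta, at 373, 580 and 674 CPM against 17.5, 27.3 and 32.3 CPM (log2 change 4.39, SE 0.10), NT5E, the ectonucleotidase CD73, at 324, 538 and 718 CPM against 34.0, 40.2 and 50.9 CPM (log2 change 3.60, SE 0.10), and CD44, the hyaluronan receptor, at 1338, 1935 and 2264 CPM against 368, 466 and 540 CPM (log2 change 2.02, SE 0.08). VIM, the intermediate filament vimentin, chosen after its values were seen, stood at 3710, 5439 and 6809 CPM against 941, 1355 and 1617 CPM. Lower were FN1, fibronectin, at 0.387, 0.853 and 1.72 CPM against 57.8, 81.1 and 89.6 CPM (log2 change -6.35, SE 0.15, adjusted p = 1.67e-18), and CALD1, the actin-binding caldesmon, at 16.8, 22.5 and 26.5 CPM against 657, 816 and 866 CPM (log2 change -5.17, SE 0.08, adjusted p = 3.91e-21). LOX, a collagen cross-linking enzyme, was lower as well, at 4.54, 5.87 and 7.72 CPM against 32.1, 42.9 and 49.5 CPM. Vimentin was high and fibronectin nearly absent under the KO label, and both were present under NC. In the steady-state libraries VIM was at 2952 to 3928 CPM, TGFBI at 284 to 371 CPM and FN1 at 0.211 to 0.578 CPM.

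Among 15 genes of fibroblasts and pericytes, 9 were tested, 4 were higher and 2 lower at every time. PDGFRB, the platelet-derived growth factor receptor of pericytes, stood at 0, 0.182 and 0.505 CPM under the KO label and 18.1, 22.8 and 26.5 CPM under NC (log2 change -6.65, SE 0.29, adjusted p = 2.90e-14). COL3A1, a fibrillar collagen, stood at 7.29, 8.69 and 10.3 CPM against 0.583, 1.17 and 1.59 CPM, COL6A3 at 4.84, 6.71 and 9.21 CPM against 0, 0.178 and 1.13 CPM, and THY1, a surface glycoprotein, at 4.82, 6.58 and 9.34 CPM against 0.708, 0.992 and 1.36 CPM. The defining fibroblast genes COL1A2, LUM, POSTN and DPT were under 0.5 CPM in all 20 libraries, so 6 of the 15 genes stayed at a trace throughout. The sum over this list, without TMM scaling, was 336 to 381 CPM under the KO label and 332 to 448 CPM under NC. In the steady-state libraries it was 47.0 to 75.9 CPM, below both labels.

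**Figure D2:**
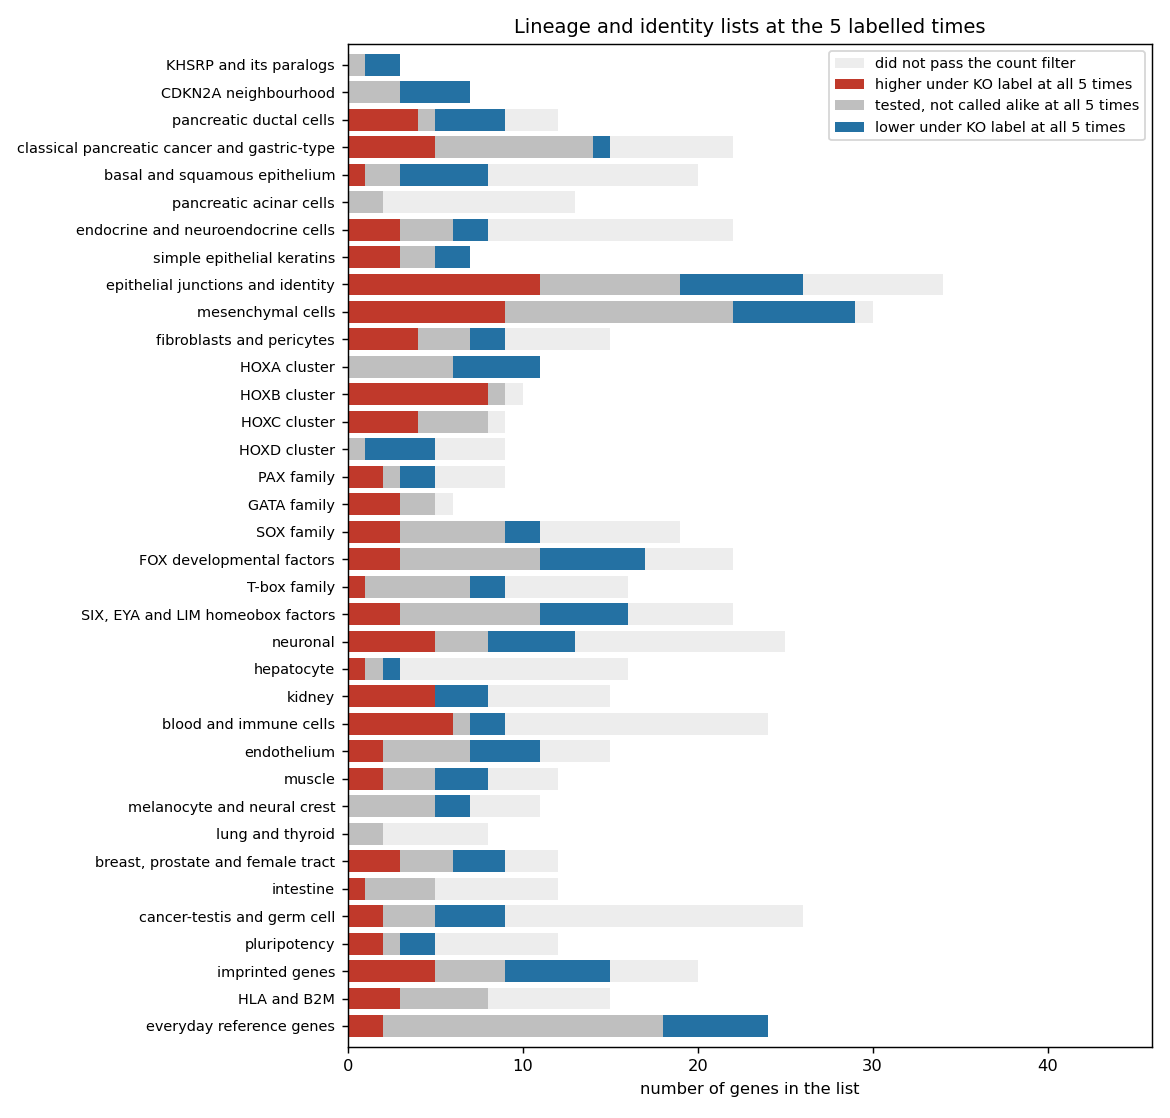
Number of genes of each of the 36 lists that were higher (red) or lower (blue) under the KO label at all 5 labelled times, tested but not called alike at all times (grey), or not past the count filter (pale). Most lists hold red and blue members, the HOXB list holds 8 red and 0 blue, and the HOXA and HOXD lists hold 5 and 4 blue and 0 red.

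HOX genes separated the labels cluster by cluster. In the HOXB cluster on chromosome 17, 8 of 10 genes were higher under the KO label at every time and 0 were lower, with 9 tested and a median log2 change of 3.47. The 8 are HOXB2 to HOXB9. HOXB2 stood at 27.1, 36.1 and 57.1 CPM against 0, 0.135 and 0.396 CPM (log2 change 8.02, SE 0.23, adjusted p = 4.33e-17), HOXB4 at 15.4, 20.8 and 30.7 CPM against 0, 0.115 and 0.564 CPM (log2 change 7.01, SE 0.25), and HOXB8 at 13.2, 18.2 and 35.0 CPM against 0.188, 0.857 and 1.20 CPM (log2 change 4.69, SE 0.23). The most 5′ member, HOXB13, was at 2.32, 4.41 and 6.62 CPM against 4.999, 6.53 and 9.54 CPM and overlapped between the labels. In the HOXA cluster on chromosome 7 no gene was higher at every time, and 5 of 11 were lower, all tested, with a median log2 change of -2.94 (-1.87 with genes at 0 counts at their bound). HOXA10 stood at 0, 0 and 0.0859 CPM against 13.9, 17.9 and 32.3 CPM (adjusted p = 1.65e-17), HOXA7 at 0, 0 and 0.0874 CPM against 8.21, 9.97 and 13.9 CPM (adjusted p = 4.99e-16) and HOXA11 at 0, 0.318 and 0.644 CPM against 5.90, 7.32 and 32.4 CPM (log2 change -5.09, SE 0.35). HOXA10 and HOXA11 are 5′ members of the cluster and HOXA7 a central one. The 3′ members HOXA2 to HOXA6 had medians of at most 2.13 CPM under both labels. The HOXD cluster was off under the KO label: 4 of 9 genes were lower at every time, 5 were tested, and HOXD9 stood at 0, 0 and 0.161 CPM against 3.89, 6.30 and 8.50 CPM (adjusted p = 1.31e-13). HOXD8 stood at 0, 0.0369 and 0.157 CPM against 3.80, 4.46 and 9.21 CPM (adjusted p = 2.24e-12). HOXC genes were on under both labels, with 4 of 9 higher under the KO label at every time and 0 lower, and 8 tested. HOXC8 stood at 6.16, 8.91 and 19.2 CPM against 0.751, 1.95 and 3.20 CPM (log2 change 2.42, SE 0.19), HOXC6 at 12.9, 17.2 and 21.3 CPM against 2.48, 5.98 and 8.35 CPM (1.65, SE 0.14) and HOXC4 at 6.20, 7.44 and 9.12 CPM against 2.67, 3.27 and 4.92 CPM (1.12, SE 0.13). In the steady-state libraries HOXB2 was at 25.6 to 28.8 CPM, HOXB4 at 23.7 to 34.7 CPM, HOXA10 at 0 to 0.0470 CPM and HOXD9 at 0 CPM.

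**Figure D3:**
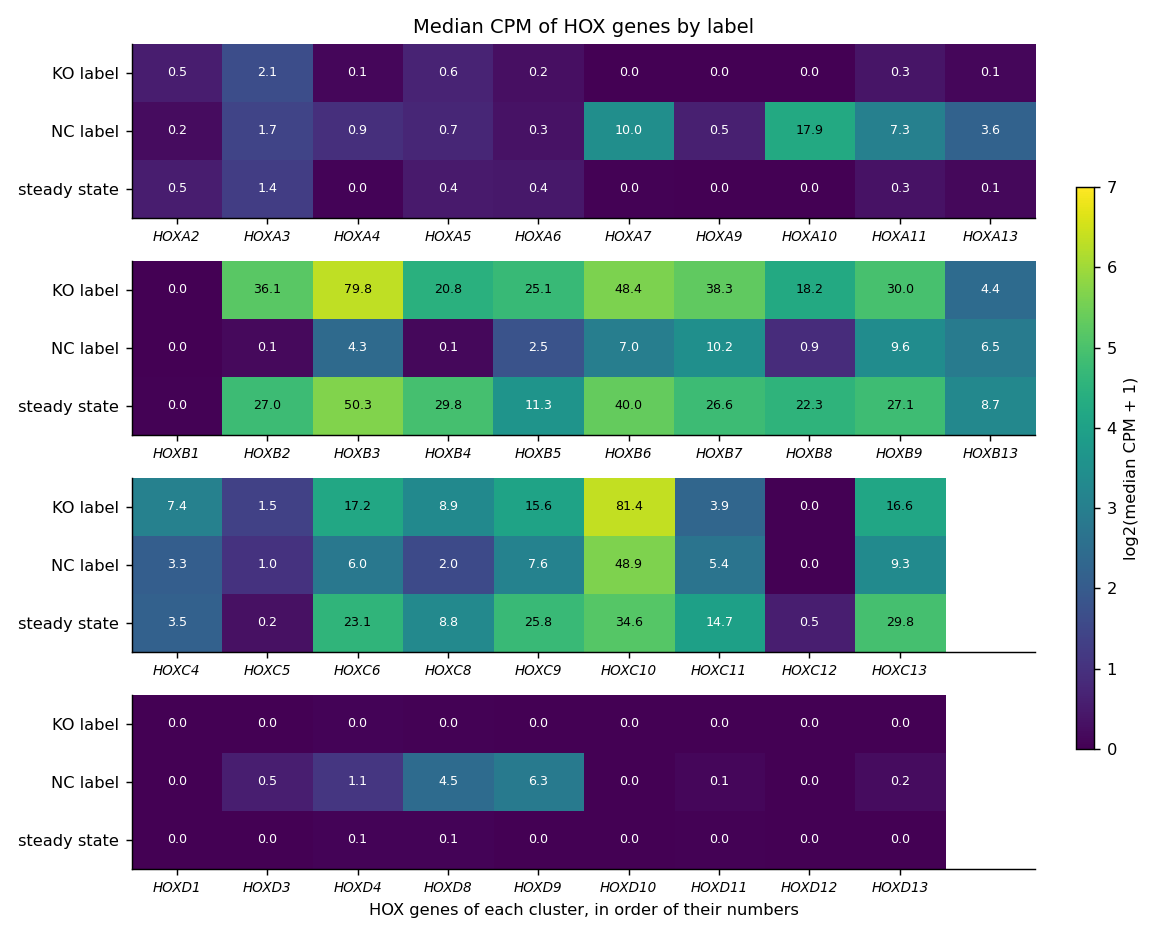
Median CPM of HOX genes under the KO label, the NC label (10 libraries each) and in the 6 steady-state libraries; numbers in the cells are CPM, colour is log2(median CPM + 1), and TMM scaling applies to the tested genes of the drug set only. HOXB2 to HOXB9 are bright in the KO-label and steady-state rows, while HOXA7, HOXA10 and HOXA11 are bright only in the NC-label row.

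Other families of developmental transcription factors held members that were on under one label only. In the PAX family, 2 of 9 were higher and 2 lower at every time, with 5 tested. PAX2, a kidney factor, stood at 14.1, 15.96 and 22.9 CPM under the KO label against 0 counts in all NC libraries, at least 117-fold higher. In the GATA family, 3 of 6 were higher and 0 lower, with 5 tested. GATA4, an endoderm and heart factor, stood at 4.61, 6.83 and 28.7 CPM against 0, 0 and 0.0833 CPM (adjusted p = 1.12e-15). GATA5 stood at 2.95, 5.79 and 14.4 CPM against 0, 0.113 and 0.564 CPM (adjusted p = 1.38e-08). In the SOX family, 3 of 19 were higher and 2 lower at every time, with 11 tested and SOX9 among those higher. The T-box family had 1 of 16 higher and 2 lower, with 9 tested. TBX18, a factor of heart and ureter mesenchyme, stood at 4.02, 6.29 and 9.16 CPM against 0, 0 and 0.0863 CPM (adjusted p = 4.23e-14), whereas TBX1 stood at 14.9, 21.6 and 31.5 CPM against 32.9, 42.6 and 57.1 CPM (log2 change -0.96, SE 0.10). Of 22 forkhead factors, 3 were higher and 6 lower under the KO label at every time, with 17 tested. FOXA2, given above, is among the former. On the other side, FOXF1, a factor of visceral mesoderm, stood at 0, 0 and 0.0783 CPM against 2.57, 4.26 and 19.99 CPM (adjusted p = 5.02e-14), FOXC1 at 0.404, 1.45 and 7.52 CPM against 22.0, 28.8 and 215 CPM (log2 change -4.53, SE 0.41), and FOXF2 at 7.19, 9.07 and 11.8 CPM against 46.1, 54.5 and 158 CPM (log2 change -2.96, SE 0.18). Among LIM homeobox factors, EYA genes and homologues of sine oculis, 3 of 22 were higher and 5 lower at every time, with 16 tested. EYA2 stood at 5.44, 7.86 and 10.1 CPM against 0, 0 and 0.165 CPM and LHX1 at 14.1, 19.4 and 27.7 CPM against 0.0833, 0.496 and 0.744 CPM, both higher under the KO label. EYA4 stood at 0, 0 and 0.322 CPM against 9.70, 18.1 and 22.2 CPM and SIX2, a factor of kidney progenitors, at 0, 0 and 0.175 CPM against 4.14, 6.35 and 16.9 CPM, both lower. EYA2 and EYA4, paralogous transcriptional coactivators, thus stood on opposite sides.

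In the steady-state libraries GATA4 was at 20.2 to 30.6 CPM, TBX18 at 12.7 to 21.6 CPM, EYA2 at 10.999 to 19.1 CPM and PAX2 at 1.66 to 2.32 CPM, whereas EYA4, SIX2 and FOXF1 were at most 0.326 CPM. FOXC1, at 7.99 to 10.48 CPM, lay between the labels.

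Lists for other lineages were checked for a second cell type. Hepatocyte genes were nearly all silent, with 13 of 16 under 0.5 CPM in all 20 libraries, ALB and AFP among them. Acinar genes were alike (11 of 13, including PRSS1, CPA1 and PTF1A), and so were those of lung and thyroid (6 of 8). Of the 2 acinar and 2 lung and thyroid genes tested, none was called at every time. Of 16 hepatocyte genes 1 was higher and 1 lower at every time, with 3 tested. In the list of blood and immune cells 13 of 24 were at a trace, PTPRC, the pan-leukocyte antigen CD45, among them. There 6 were higher and 2 lower at every time, with 9 tested. Among those higher was CD68, a lysosomal glycoprotein also found outside macrophages, at 111, 200.5 and 247 CPM against 9.95, 11.7 and 13.8 CPM (log2 change 3.92, SE 0.12). CORO1A, an actin regulator, was at 4.54, 6.37 and 8.00 CPM against 0.0897, 0.237 and 0.431 CPM. The summed level of the list, without TMM scaling, was 144 to 235 CPM under the KO label and 14.3 to 19.2 CPM under NC. In the steady-state libraries it was 84.6 to 151 CPM. Its defining markers CD3D, MS4A1 and SPI1 were under 0.5 CPM in every library.

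Endothelial genes were 2 higher and 4 lower of 15, with 11 tested and PECAM1, CLDN5 and TEK under 0.5 CPM throughout. KDR, the receptor of vascular endothelial growth factor, stood at 7.17, 9.91 and 10.7 CPM under the KO label against 0 counts in all 10 NC libraries, at least 65.1-fold higher. ESAM, a junctional adhesion molecule, was lower at 14.9, 19.9 and 26.5 CPM against 54.1, 74.1 and 85.1 CPM, as was ENG, endoglin, at 45.7, 61.9 and 79.9 CPM against 116, 148 and 169 CPM. ESAM and ENG were present under both labels and KDR under one.

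Neuronal genes were 5 higher and 5 lower of 25, with 13 tested, and 12 were at a trace, including STMN2, ELAVL4 and DCX. The median log2 change of -0.21 became 0.22 with ribosomal protein scaling and 0.66 on the molecule signal. SYT1, a synaptic vesicle calcium sensor, was higher under the KO label at 74.1, 86.3 and 92.2 CPM against 0.179, 0.366 and 1.60 CPM (log2 change 7.34, SE 0.24, adjusted p = 1.01e-15). The microtubule protein gene MAP2 (log2 change 2.93, SE 0.13) and the neuronal enolase ENO2 (1.94, SE 0.11) were higher too. INA, the neurofilament alpha-internexin, was lower at 0, 0 and 0.286 CPM against 34.9, 48.7 and 52.8 CPM (adjusted p = 2.62e-15), as were SNAP25 (log2 change -3.47, SE 0.23) and MAPT, which encodes tau (-2.56, SE 0.16). The exocytosis genes SYT1 and SNAP25 thus stood on opposite sides. Of 22 endocrine genes, 8 of them tested, 3 were higher, 2 lower and 14 at a trace, INS, GCG and CHGA among the latter. SYP, synaptophysin, was higher under the KO label at 6.29, 7.88 and 9.28 CPM against 0.133, 0.742 and 1.27 CPM, and PCSK1, a prohormone convertase, was lower at 0, 0.0576 and 0.215 CPM against 6.96, 8.66 and 12.7 CPM.

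Kidney genes were 5 higher and 3 lower of 15, with 8 tested. PAX2 and LHX1 were among those higher, while UMOD was under 0.5 CPM throughout. Genes of breast, prostate and the female tract were 3 higher and 3 lower of 12, with 9 tested. Muscle genes were 2 higher and 3 lower of 12, with 8 tested. The cytoskeletal SMTN, smoothelin, was at 55.1, 65.9 and 73.0 CPM against 22.1, 27.1 and 34.0 CPM. ACTC1, a cardiac actin, was at 0, 0 and 0.0739 CPM against 4.10, 4.90 and 8.28 CPM. The regulators MYOD1 and MYOG were at a trace in every library. Intestinal genes were 1 higher and 0 lower of 12, with 5 tested. Melanocyte and neural crest genes were 0 higher and 2 lower of 11, with 7 tested. MITF, among those lower, stood at 14.4, 21.5 and 36.8 CPM against 45.2, 55.8 and 158 CPM (log2 change -1.58, SE 0.17). SOX10 and TYR were at a trace.

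Cancer-testis genes, normally confined to the germ line, were 2 higher and 4 lower of 26 at every time, with 9 tested. Their sum, without TMM scaling, was 136 to 202 CPM under the KO label and 268 to 324 CPM under NC. In the steady-state libraries it was 455 to 648 CPM, above both labels. MAGEB2 had 0 counts in all KO libraries and stood at 66.6, 87.0 and 100.5 CPM under NC, at least 547-fold higher. MAGEA1 was lower under the KO label at 2.81, 3.94 and 5.67 CPM against 66.6, 75.6 and 87.5 CPM (log2 change -4.23, SE 0.10, adjusted p = 3.14e-18), and MAGEA3 at 24.3, 33.9 and 36.2 CPM against 50.9, 64.2 and 74.5 CPM. MAGEA12 and MAGEA6, of the same subfamily, ran the other way, MAGEA12 at 19.2, 23.5 and 28.5 CPM against 0.896, 1.40 and 2.12 CPM and MAGEA6 at 20.3, 24.5 and 27.1 CPM against 1.74, 2.48 and 3.71 CPM. Reads of MAGEA3, MAGEA6 and MAGEA12 can be shared between near-identical copies, so these 3 values are uncertain. Pluripotency genes were 2 higher and 2 lower of 12, with 5 tested and NANOG and SOX2 at a trace. LIN28B, a repressor of let-7 processing, stood at 4.00, 6.24 and 15.8 CPM against 0 counts in every NC library, at least 51.1-fold higher, and SALL4, a zinc finger factor of stem cells, at 0.429, 1.18 and 2.11 CPM against 22.7, 26.3 and 32.7 CPM.

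Imprinted genes, of which usually only 1 parental copy is active, were 5 higher and 6 lower of 20 at every time, with 15 tested. Their sum, without TMM scaling, was 811 to 917 CPM under the KO label and 977 to 1329 CPM under NC. In the steady-state libraries it was 297 to 326 CPM, below both labels. MEG3, a maternally expressed long noncoding RNA, stood at 83.0, 147 and 159 CPM under the KO label and 0, 0.0768 and 0.177 CPM under NC (log2 change 10.78, SE 0.20, adjusted p = 4.10e-20). PHLDA2 (log2 change 1.31, SE 0.08) and the adaptor gene GRB10 (1.22, SE 0.11) were higher by smaller margins. PLAGL1, a zinc finger growth regulator, was lower at 0.143, 0.926 and 1.57 CPM against 38.8, 44.9 and 49.8 CPM (log2 change -5.53, SE 0.20). CDKN1C, which encodes the inhibitor p57KIP2, stood at 0.806, 1.59 and 2.66 CPM against 22.0, 33.8 and 49.4 CPM, and MEST at 6.39, 9.90 and 14.2 CPM against 89.8, 137 and 167 CPM. H19, chosen after its values were seen, was lower too, at 67.6, 87.4 and 97.1 CPM against 427, 679 and 762 CPM. Of the maternally expressed genes named here, MEG3 and PHLDA2 were thus higher and CDKN1C and H19 lower under the KO label. HLA genes and B2M, the chains of antigen presentation, were 3 higher and 0 lower of 15, with 8 tested. HLA-E stood at 159, 245 and 330 CPM against 61.8, 93.4 and 106 CPM (log2 change 1.42, SE 0.09).

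Some genes often used as references also differed between the labels. Of 24, all tested, 2 were higher and 6 lower at every time. Of all genes tested, 20.1% were higher and 20.3% lower, so these counts do not set reference genes apart from the background. The median log2 change of -0.06 became 0.32 with ribosomal protein scaling and 0.40 on the molecule signal. POLR2A, the large subunit of RNA polymerase II, stood at 422, 440 and 462 CPM under the KO label and 213, 235 and 258 CPM under NC (log2 change 0.91, SE 0.04, adjusted p = 8.58e-14). SDHA, a subunit of succinate dehydrogenase, stood at 115, 130 and 141 CPM against 350, 435 and 458 CPM (log2 change -1.71, SE 0.05, adjusted p = 6.77e-17). TUBA1B, an alpha tubulin (log2 change -0.90, SE 0.10), and SNRPD3, a spliceosome core protein (-0.84, SE 0.07), were lower. Under all 3 scalings these 4 genes kept their direction, and with ribosomal protein scaling the log2 change was -0.52 in TUBA1B and -0.46 in SNRPD3.

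Genes on under one label and off under the other were counted by a rule with no test: at least 20 plain CPM in all 10 libraries of one label and under 0.5 plain CPM in all 10 of the other. These thresholds had been used on these data in earlier work, so the counts are a description only. There were 50 on under NC only, 0.791% of the 6324 genes on in all NC libraries, and 61 on under KO only, 0.957% of 6377. Of the NC genes HNRNPA1P33 lay just inside the rule, with at most 0.4998 CPM under the other label, and LINC03040 just outside, with 0.512. Of the KO genes TNFRSF1B lay just inside at 0.488 and VWA1 just outside at 0.523.

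The 10 genes on under NC only with the highest mean CPM are known from different tissues. FOLR1, the folate receptor alpha, was the first at 636, 1027 and 1347 CPM, with 2 counts in all over the 10 KO libraries. FBN2, the microfibril protein fibrillin, stood at 410, 509 and 551 CPM, ALPI, the intestinal alkaline phosphatase, at 327, 471 and 553 CPM with 0 counts under KO (at least 2895-fold higher), and LPL, lipoprotein lipase, at 411, 448 and 477 CPM. GLP2R, the receptor of glucagon-like peptide 2, stood at 278, 358 and 386 CPM, OLFM1, a secreted olfactomedin of neurons, at 235, 293 and 381 CPM, and SMOC1, a matrix protein, at 207, 263 and 296 CPM. CDKN2A, given above, was the eighth, followed by NYAP2, an adaptor of PI3K signalling, at 131, 163 and 261 CPM, and the long noncoding RNA CCAT1 at 74.8, 131 and 227 CPM.

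On under KO only, KIF1A, a motor of axonal transport, was the first at 261, 346 and 362 CPM. ELOVL2, which elongates polyunsaturated fatty acids, stood at 147, 229 and 300.0 CPM, NID1, the basement membrane protein nidogen, at 115, 204 and 242 CPM, and AGR2 was the fourth. EPHB6, a kinase-dead ephrin receptor, stood at 111, 152 and 201 CPM, IGFBP2, a binding protein of insulin-like growth factors, at 90.5, 135 and 226 CPM, and ADAM19, a membrane metalloprotease, at 114, 143 and 164 CPM. MLPH, melanophilin, which links melanosomes to myosin, stood at 116, 135 and 146 CPM, MEG3 was the ninth, and KLHL4 stood at 86.7, 136 and 153 CPM. OCLN and HOXB2 are also among the 61, and INA, MAGEB2 and CDKN2A among the 50. In the off label none of these top genes passed 0.5 plain CPM in any library, which is the rule itself.

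The steady-state libraries were not used by that rule. Of the 50 genes on under NC only, 48 are listed there, and 45 of these were under 0.5 CPM in all 6 libraries, against 92 of 6289 genes (1.46%) among those on in all NC libraries. Among the 3 others were GLP2R at 1.98 to 3.13 CPM and SPON2 at 0.351 to 0.623 CPM. Of the 61 genes on under KO only, 61 had at least 1 CPM in all 6 steady-state libraries, from 1.01 to 235 CPM, against 99.2% of the 6347 genes on in all KO libraries. All 6 libraries of both genotypes enter these counts. The share of KO genes is near that background, and on the TPM scale, added after seeing the data, 5 of the 61 were under 0.5 in all 6 libraries. Steady-state levels of KO genes could also lie well below those under the KO label, as for RNF128 at 1.01 to 3.08 CPM, TNIK at 1.63 to 3.89 CPM and COL11A1 at 2.66 to 5.37 CPM, named after their values were seen. Across 37793 genes each library was correlated with each single steady-state library by Spearman correlation of log2(CPM + 1). The values were 0.886 to 0.899 for the KO-labelled libraries and 0.841 to 0.851 for the NC-labelled ones. Between KO-labelled and NC-labelled libraries they were 0.865 to 0.883, across 43682 genes. This is a description across genes, which are not independent, and libraries share depth and processing within a set.

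**Figure D4:**
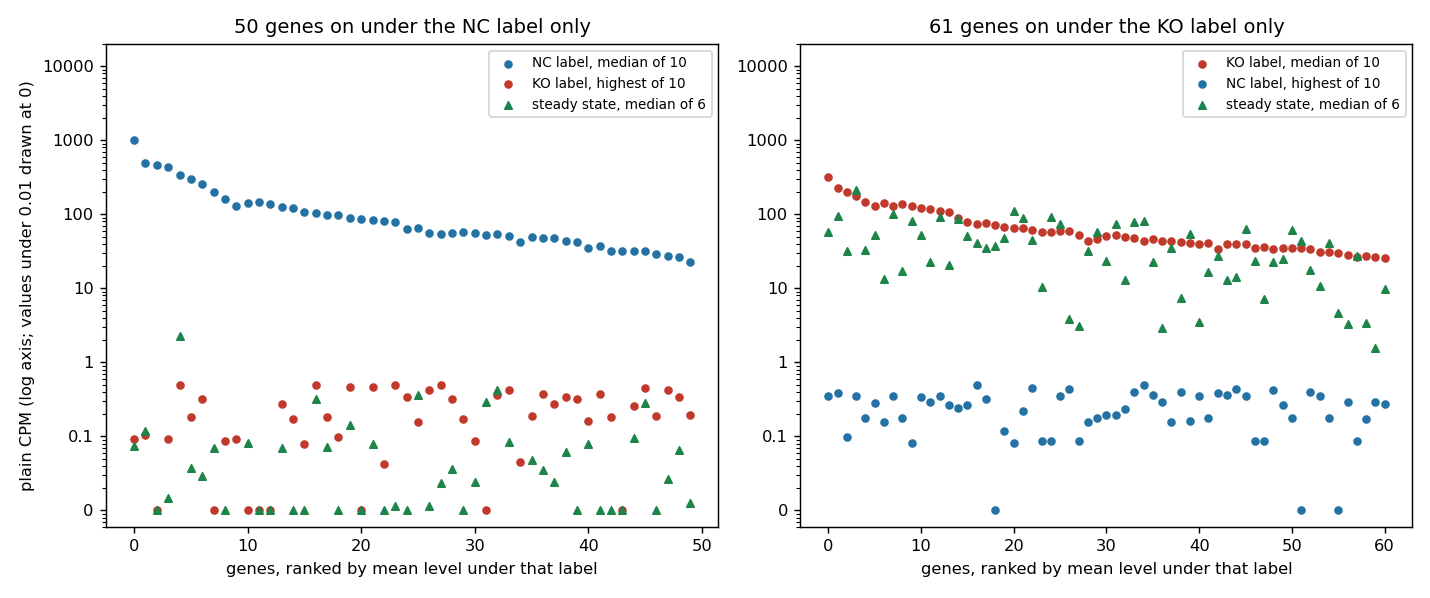
Genes on under the NC label only (left, 50 genes) and under the KO label only (right, 61 genes), ranked by mean level; circles give the median plain CPM under the label where the gene is on and the highest value under the other label, triangles the median of the 6 steady-state libraries, on a log axis with values under 0.01 drawn at 0. Steady-state triangles lie near 0 on the left, with GLP2R above 1 CPM, and at or above 1 CPM on the right.

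Named genes other than the set ones were chosen for the same direction at all labelled times without overlap, or by the on-off rule. Their constant direction and lack of overlap are therefore no finding. Of the genes named in every case, KRT18 alone had both signs across times. The size of the difference changed with labelled time in 9790 of 17715 genes (55.3%) by the interaction test, and in 57 of the 112 named genes. FOXC1 moved most among named genes with at least 10 counts in every group. Under the NC label it stood at 22.0 and 24.5 CPM at 0 h, 44.1 and 50.1 CPM at 2 h, and 215 and 213 CPM at 4 h, and was back at 28.7 and 28.3 CPM at 6 h. Under the KO label it was highest at 6 h, with 7.52 and 6.80 CPM. SOX9 had its highest values under the KO label at 6 h as well, at 134 and 126 CPM against 19.2 and 17.6 CPM at 0 h. Levels thus did not run in order of labelled time, and the libraries labelled 4 h under NC and 6 h under KO stood apart at these genes. Without the libraries labelled 4 h and 6 h, 4475 genes were higher and 4312 lower at every remaining time, 6375 and 6294 over all remaining times, and 64 and 77 were on under NC only and under KO only. All 112 named genes kept their direction and call over all times without them.

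**Figure D5:**
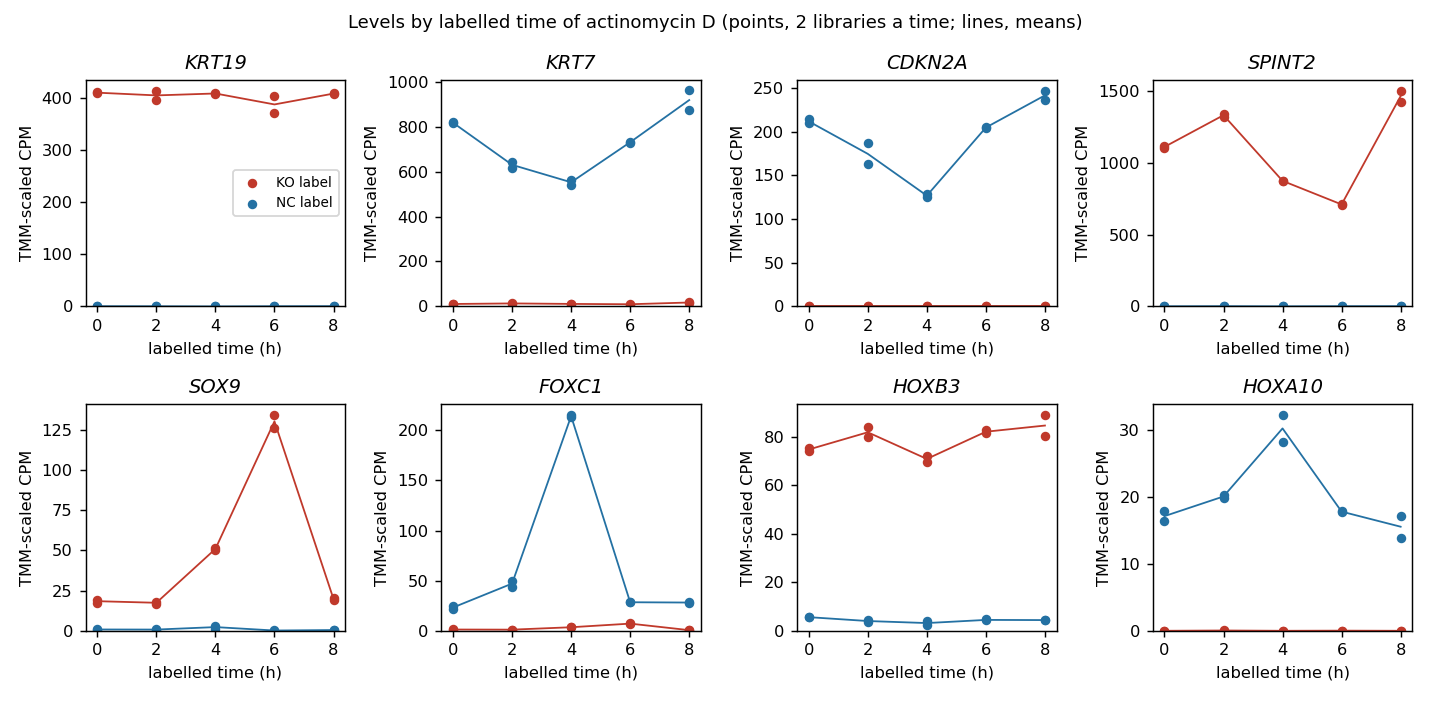
TMM-scaled CPM of 8 genes by labelled time of actinomycin D in hours, for the KO label (red) and the NC label (blue); points are the 2 libraries of each time and lines join their means. The labels stay apart at every time in all 8 genes, while SOX9 is highest at the KO libraries labelled 6 h and FOXC1 at the NC libraries labelled 4 h.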

How the data were processed

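RNA-seq was read in 20 actinomycin D libraries and 6 steady-state libraries; 5 crosslinking libraries of the series were not used here. The deposited actinomycin D tables give whole-number read counts per gene for 43682 genes, per the file headers. Beside them stands RPKM, per the file headers, which was computed by the authors. A further column is a molecule signal, per the file headers, which within each library follows a straight line of log2 RPKM; no source used here says what set the line. The steady-state tables hold expected counts, as deposited, which were rounded, and TPM made by the authors. STAR, RSEM, Bowtie2, deepTools and hg19 are named in the submitters' processing notes; their versions, the annotation and any use of strand were found in no label or header, so overlapping and antisense genes cannot be told apart. Retired symbols were brought up to date for 415 genes.

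Counts were tested in edgeR 4.0.16 (R 4.3.3) with TMM scaling, filterByExpr and the robust quasi-likelihood F test, Benjamini-Hochberg adjustment and a threshold of 0.05. The model held label and labelled time; a model with 1 mean per label and time gave the difference at each time and the interaction. The alternatives were DESeq2 1.42.0, limma 3.58.1 on log2(molecule signal + 1), other scalings, filters and thresholds, and fits without libraries or times. A gene with 0 counts throughout 1 label has no fitted fold; a bound against a floor of 3 counts per library is given. With only a few counts under 1 label, levels and p are given. In counts simulated for this comparison 17109 genes were tested. Over all times, 86.4% of changes of 1 and 99.1% of changes of 2 on the log2 scale were recovered. At every time, 27.3% and 67.9% were recovered. The simulated scatter was that of the model of label and labelled time, which also holds changes of the label difference with time. The simulated counts had no time effect. How many changes the counts at every time miss in the data was therefore not measured. Within groups the chi-square per degree of freedom between libraries was 3.90 to 5.30, so no library repeats another. Replicate numbers did not pair the libraries: the correlation of deviations between libraries with the same number was -0.04 to 0.05.

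The genes named in full are 8 set genes, up to 3 each way from each of 36 lists (543 genes) with the largest change among those called at all 5 times, not overlapping and with a mean of at least 5 CPM under the higher label, and the 10 on-off genes each way with the highest mean CPM: 112 in all. Some of these, and some other list members, enter the counts but are not reported here by name. KHSRPP1, VIM, CLDN1, JUP, CDH1, H19, HOXB13 and SPON2 fall outside this rule and were chosen after their values were seen. The members and lists were chosen with earlier results of these data known. Promoter windows are RefSeq's for GRCh38.p14.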

Additional observations from a re-analysis of the deposited data

Results flagged for a closer look

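Among 176 sets of 10 libraries (a named gene under 1 label with at least 10 counts in its highest library), 11 held a library far from the others by Dixon's ratio; chance flags about 1 set in 20. Without the minimum of 10 counts 26 of 216 sets were flagged, and the 11 with the minimum are listed here. Under the KO label these were KRT19, with 372 CPM in 1 library labelled 6 h (next lowest 396), ST14, with 1.07 CPM in 1 labelled 8 h (next highest 0.606), KDR, with 7.17 CPM in 1 labelled 8 h (next lowest 9.33), SMTN, with 55.1 CPM in 1 labelled 6 h (next lowest 63.9), and GLP2R, with 0.431 CPM in 1 labelled 6 h (next highest 0.172). Under the NC label they were SOX9, with 3.18 CPM in 1 library labelled 4 h (next highest 1.41), COL6A3, with 1.13 CPM at 4 h (0.516), HOXA7, with 13.9 CPM at 6 h (10.2), HOXD8, with 9.21 CPM at 4 h (5.65), EYA4, with 9.70 CPM at 8 h (next lowest 16.3), and ELOVL2, with 0.396 CPM at 6 h (next highest 0.211).

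The difference between the labels changed with labelled time in 9790 genes and in 57 of the 112 named genes by edgeR's interaction test. Among named genes with at least 10 counts in every group, the label difference spanned at least 2 on the log2 scale across times in FOXC1 (3.92, adjusted p = 1.17e-19), ST14 (2.24, adjusted p = 0.0103) and SNAP25 (2.07, adjusted p = 0.0173). Without that minimum there were 17 such genes, FOXC1, ST14 and SNAP25 included. Spans of genes below the minimum rest on fewer than 10 counts in some group.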

How the results depend on the processing

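All 112 named genes kept their direction and their side of the threshold in each of 34 alternatives over all labelled times (3808 values). Apart from the set genes, they were chosen for large called differences or by the on-off rule. Most alternatives reuse nearly all of the same libraries, so this outcome largely follows from the choice and is no independent check. The size moved by over 1.5 times with scaling in 9 named genes whose log2 change was under 2 in size (MTAP, KRT8, KRT18, KRT80, TBX1, MAGEA3, POLR2A, TUBA1B and SNRPD3), and of these in MTAP also without the libraries labelled 4 h and 6 h. Scaling moved the counts: with ribosomal protein scaling 4347 genes were lower over all times, 2074 lower at every time and 1982 below without overlap. On the molecule signal these were 4112, 1468 and 1025, with 2155 above without overlap. Their construction shifts the median gene by 0.37 and 0.41. Leaving out 1 library, 1 time, the libraries labelled 4 h and 6 h, or 1 replicate of every group gave 5124 to 6881 genes higher and 4909 to 6836 lower over all times. Without the libraries labelled 4 h and 6 h the interaction was called in 5418 genes, with fewer samples and genes tested; the counts at every remaining time without them were added after seeing the data. The steady-state comparison gave 2961 to 4991 higher and 3730 to 5163 lower with 1 library left out.

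With the replicate number as a block, 6651 genes were higher and 6538 lower over all times, 3536 and 3574 at every time, 9713 changed with time, and 4046 were higher and 4659 lower in the steady state. The block changed no call of a named gene.

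On-off counts follow their thresholds: 92 genes under NC and 113 under KO with on at 10 CPM, 8 and 3 with off at 0 counts, and 37 under KO on the RPKM scale. On the TPM scale, an alternative added after seeing the data, 5 of the KO genes were off in the steady state. Likeness by RPKM and TPM was 0.874 under KO and 0.823 under NC. Fits at each time without 1 replicate of every group were not run, since 10 libraries for 10 means leave no residual degrees of freedom. Depth limits genes at 0 counts to the floor of 3 counts per library.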
